A study of Mus musculus with 18 samples.

Results

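The proteasome subunit genes were examined in mouse embryoid bodies that lacked, by their labels, Mettl14 or Mettl3, with or without an inhibitor of an H3K27 methyl-modifying enzyme. Members were the protein-coding genes whose symbol starts with Psma, Psmb, Psmc or Psmd and ends in a number, without the 3 immunoproteasome genes Psmb8, Psmb9 and Psmb10. The rule uses names only and found 36 of the 54446 gene identifiers in each file. By symbol, 16 were placed with the core particle (8 alpha and 8 beta genes) and 20 with the regulatory cap (6 ATPase and 14 non-ATPase genes). The non-ATPase group, counted with the cap throughout, takes in the chaperones Psmd5, Psmd9 and Psmd10. The 36 members lie on 16 chromosomes. In 34 of them reads were found in all 18 libraries.

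RNA was measured in 6 groups of 3 libraries. In the Mettl14 line these were conditional knockout (CKO) cells with 5 µM GSK343, an inhibitor of the H3K27 methyltransferase EZH2, CKO cells with the solvent DMSO, and a group labelled only Control. In the Mettl3 line they were CKO cells with 5 µM GSK-J4, an inhibitor of the H3K27 demethylases KDM6A and KDM6B, CKO cells with DMSO, and a group labelled only Control. All were C57BL/6 embryonic stem cells, maintained with LIF, CHIR99021 and PD0325901, that had been differentiated for 7 days into embryoid bodies without feeders. The labels do not say how the deletion was induced, what the controls carried or whether replicates were separate cultures, so a p-value measures the spread of these libraries only, which may be technical. No control cells with an inhibitor were among the samples analysed here, each inhibitor was used in 1 line, and line and agent therefore cannot be told apart. The design text names as its question how an inhibitor of H3K27 methylation affects the expression changes of Mettl14 knockout cells. Groups are called Mettl14 KO+GSK343, Mettl14 KO, Mettl14 control, Mettl3 KO+GSK-J4, Mettl3 KO and Mettl3 control below.

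The proteasome is the large protease that degrades proteins marked with ubiquitin. Its core is a barrel of stacked rings, in which alpha subunits form the outer gated rings and beta subunits the inner rings that hold the cutting sites. The cap binds ubiquitin chains, removes them, and unfolds the substrate with a ring of ATPases that pushes it into the core. Because each particle needs all of its subunits, their genes are often regulated together, in mammals through the transcription factor Nfe2l1 among others, and human embryonic stem cells are known for high proteasome activity. Mettl3 and Mettl14 form the enzyme that writes N6-methyladenosine on messenger RNA.

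Total counts ranged from 721853 to 32540164 per library, and the members took between 0.404% and 0.742% of them. The Mettl3 KO+GSK-J4 libraries stood apart: mitochondrial messenger RNA took 0.112% to 0.244% of their counts, against 1.29% to 3.24% in the other 15 libraries, and they correlated less with each other (rank correlations of 0.812 to 0.846) than the libraries of the 5 other groups did (0.893 to 0.975). The GSK-J4 libraries were also shallower, at 3395675 to 8289423 counts, against 17544904 to 32540164 in Mettl3 KO and 21615674 to 29496824 in the Mettl3 control. Depth and agent therefore cannot be told apart within that line. The whole-gene counts did not show either deletion. Mettl14 had 12.6, 17.7 and 13.1 CPM in Mettl14 KO+GSK343, 17.1, 24.6 and 20.2 CPM in Mettl14 KO and 17.7, 19.2 and 17.7 CPM in the control. Mettl3 had 7.08, 24.2 and 11.3 CPM in Mettl3 KO+GSK-J4, 25.99, 6.90 and 17.9 CPM in Mettl3 KO and 20.1, 34.2 and 18.8 CPM in the control. Since a deletion of some exons can leave the whole-gene count as it was, neither value checks the labels. The markers of pluripotent cells, endoderm and mesoderm were low (summed levels up to 53.7, 12.8 and 9.76 CPM), while 5 mesenchyme markers summed to 9130 to 33347 CPM, lowest with GSK-J4, at 9130 to 16612 CPM. CPM here are counts relative to library size, scaled over all 18 libraries with TMM factors (trimmed mean of M values).

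Per base of exon, the members spread over a range of levels that was wide between genes and narrow between groups. Levels per length are in RPKM, the same CPM divided by exon length in kilobases, as the median over 18 libraries. Among alpha genes, Psma4, which encodes a subunit of the alpha ring, was the highest at 109.6 RPKM, within 69.1 to 168, and Psma1 was the lowest with reads in all libraries at 19.6 RPKM, within 14.2 to 29.7. Among beta genes, Psmb6, the subunit with caspase-like activity, was highest at 62.7 RPKM, within 35.6 to 142. Psmb7, the subunit with trypsin-like activity, was lowest of those with reads in all libraries at 22.5 RPKM, within 10.7 to 40.2, and Psmb5, the subunit with chymotrypsin-like activity, lay between them at 40.4 RPKM, within 15.7 to 64.9. Among the ATPases, Psmc1 was highest at 109 RPKM, within 86.9 to 160.3 and Psmc2 lowest at 24.1 RPKM, within 15.3 to 28.8. Among the non-ATPases, Psmd7, a scaffold partner of the deubiquitinase subunit, was the highest of all members at 131 RPKM, within 81.6 to 189. Psmd9, an assembly chaperone of the ATPase ring that is not part of the mature particle, was lowest at 3.27 RPKM, within 2.15 to 4.36. The ranges of Psmd7, Psma4 and Psmc1 overlap each other, so the order among the most abundant members is not resolved, while the highest library of Psmd9 lies below the lowest of each other member named here.

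The lowest ATPase gene and the lowest non-ATPase gene are given here by library. Psmc2 had 91.4, 113 and 109 CPM in Mettl14 KO+GSK343, 121, 119 and 134 CPM in Mettl14 KO and 121, 115 and 126 CPM in its control, and 99.8, 116 and 129 CPM in Mettl3 KO+GSK-J4, 123, 121 and 77.1 CPM in Mettl3 KO and 129, 133 and 145 CPM in its control. Psmd9 had 22.2, 26.7 and 21.8 CPM in Mettl14 KO+GSK343, 29.3, 19.5 and 27.3 CPM in Mettl14 KO and 16.4, 25.2 and 28.6 CPM in its control, and 15.6, 20.9 and 19.2 CPM in Mettl3 KO+GSK-J4, 25.7, 27.5 and 21.5 CPM in Mettl3 KO and 20.3, 31.6 and 25.3 CPM in its control. For Psmc2 the Mettl14 KO+GSK343 libraries were below all 6 other libraries of that line, and the Mettl3 KO libraries were below all Mettl3 control libraries. For Psmd9 the groups overlap, apart from Mettl3 KO+GSK-J4, which was below Mettl3 KO.

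A pair of members had few reads. Psma8, a testis-specific alpha subunit, had 45, 17 and 0 reads in Mettl14 KO+GSK343, 9, 0 and 0 in Mettl14 KO and 3, 9 and 4 in its control. In the Mettl3 line it had 0, 0 and 0 reads in Mettl3 KO+GSK-J4, 26, 43 and 0 in Mettl3 KO and 128, 6 and 84 in the control. Its mean with GSK-J4 was thus at least 2.1-fold lower than in Mettl3 KO and at least 5.84-fold lower than in the control, taking a floor of 3 counts per library. These bounds are for means only. Mettl3 KO too had a library with 0 reads, and the lowest control library, at 0.207 CPM, lay below the floor of the GSK-J4 libraries. Psmb11, the thymus-specific beta subunit, had 12 reads in all, in 3 libraries. Both genes were detected far below the other members, and Psmb11 was tested only in the fits without a low-count filter, where it was not called.

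Between replicates, the members' median spread was smaller than that of all tested genes of at least 20 CPM on average in both inhibitor groups, and close to it in the rest. Those genes include members and were not matched to them in level, and the part of counting error in the gap was not tested. Their median coefficient of variation was 13.7% in Mettl14 KO+GSK343, 25.3% in Mettl14 KO and 17.3% in the control, against 22.9%, 23.3% and 17.2% for 7397 genes of at least 20 CPM. In the Mettl3 line it was 25.2% in Mettl3 KO+GSK-J4, 16.8% in Mettl3 KO and 15.4% in the control, against 37.2%, 15.6% and 14.8%. Exons of 9 members overlap an exon of another gene, over 25.5% of Psmd9's exon length and at most 12.1% of the others', so some of their reads may belong to a neighbour.

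Sequences of 4 promoters are shown. Those of Psma4 and Psmd4 are from members among the 5 with the smallest p in a comparison below. Those of Psmb5 and Psmb6 are from catalytic genes. All 4 come from RefSeq on GRCm38.p6 and are the bases before the RefSeq start, up to 250, that also lie outside the GENCODE gene. Capitals mark matches to TGACNNNGC, the antioxidant response element bound by Nfe2l1 and Nfe2l2, to CCGGAAG, a motif of ETS factors, or to CCAAT, on either strand. Psma4 lies at chr9:54950609-54950789 on the plus strand, Psmb5 at chr14:54618023-54618245 on the minus strand, Psmb6 at chr11:70525107-70525356 on the plus strand and Psmd4 at chr3:95042615-95042864 on the minus strand.
Psma4: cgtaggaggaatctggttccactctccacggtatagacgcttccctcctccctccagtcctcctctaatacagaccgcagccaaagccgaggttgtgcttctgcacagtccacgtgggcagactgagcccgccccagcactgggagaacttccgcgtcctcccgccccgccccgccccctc
Psmb5: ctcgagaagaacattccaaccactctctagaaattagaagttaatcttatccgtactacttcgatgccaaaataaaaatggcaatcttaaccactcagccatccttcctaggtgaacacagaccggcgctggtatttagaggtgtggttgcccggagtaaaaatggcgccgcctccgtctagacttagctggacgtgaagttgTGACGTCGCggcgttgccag
Psmb6: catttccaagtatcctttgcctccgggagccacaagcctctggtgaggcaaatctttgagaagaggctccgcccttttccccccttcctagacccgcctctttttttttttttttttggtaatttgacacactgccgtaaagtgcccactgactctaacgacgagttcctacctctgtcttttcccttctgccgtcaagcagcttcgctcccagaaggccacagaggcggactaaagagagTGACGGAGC
Psmd4: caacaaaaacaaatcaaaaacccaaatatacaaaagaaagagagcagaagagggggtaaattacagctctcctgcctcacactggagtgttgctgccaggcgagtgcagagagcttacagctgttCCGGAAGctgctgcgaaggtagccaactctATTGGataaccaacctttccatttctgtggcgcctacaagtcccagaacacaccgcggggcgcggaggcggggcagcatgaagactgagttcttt
The printed stretch of Psma4 holds none of the 3 motifs, Psmb5 and Psmb6 each hold 1 antioxidant response element, and Psmd4 holds 1 ETS motif and 1 CCAAT box. In windows of 250 bases before to 50 after the start, which 29 of the 36 members have in RefSeq, TGACNNNGC was found in 5 members (17.2%, against 13.99% of 27025 genes), CCAAT in 12 (41.4%, against 41.1%) and CCGGAAG in 10 (34.5%, against 9.93%). Besides Psmb5 and Psmb6, TGACNNNGC was found in Psmc6, Psmd9 and Psmd12, and CCGGAAG in Psma6, Psmc1, Psmc2, Psmc6, Psmd2, Psmd4, Psmd6, Psmd11, Psmd12 and Psmd13. No match of 1 motif overlapped a match of another, and in Psmd14 2 CCAAT matches overlap each other. These are matches of letters, not binding sites. Psma8, Psmb1, Psmb2, Psmb7, Psmc3, Psmd3 and Psmd7 had no entry.

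Summed over the subcomplexes, the core ranged more widely than the cap, and both were lower in every Mettl3 KO library than in any of its controls. The core genes together had 1533, 1647 and 2004 CPM in Mettl14 KO+GSK343, 2897, 1756 and 1496 CPM in Mettl14 KO and 1533, 1474 and 2183 CPM in the control. They had 2181, 1517 and 1628 CPM in Mettl3 KO+GSK-J4, 1660.1, 1605 and 1200.5 CPM in Mettl3 KO and 1906, 2478 and 1924 CPM in the control. In the Mettl14 line the groups overlap, and replicate 1 of the KO was the highest library of all. The cap genes together had 3178, 3202 and 3571 CPM in Mettl14 KO+GSK343, 4224, 3779.7 and 3239 CPM in Mettl14 KO and 3213, 3368 and 3798 CPM in the control. They had 3965, 3575 and 3506 CPM in Mettl3 KO+GSK-J4, 3382, 3261 and 2778 CPM in Mettl3 KO and 3620.0, 4401 and 3557 CPM in the control. For the cap, the Mettl3 KO libraries lie below both other groups of that line, while for the core they overlap Mettl3 KO+GSK-J4. On plain CPM the core sums did not overlap, at 2632, 1791 and 1961 CPM in Mettl3 KO+GSK-J4, against 1655, 1603 and 1218 CPM in Mettl3 KO. In bulk RNA, fewer cells of a type and less RNA per cell cannot be told apart.

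The ratio of cap to core, which needs no scaling between libraries, was 1.82, 2.36 and 2.15 in Mettl3 KO+GSK-J4, 2.04, 2.03 and 2.31 in Mettl3 KO and 1.90, 1.78 and 1.85 in its control. Every Mettl3 KO library was above every control library. In the Mettl14 line the ratio was 2.07, 1.94 and 1.78 in Mettl14 KO+GSK343, 1.46, 2.15 and 2.17 in Mettl14 KO and 2.095, 2.28 and 1.74 in its control, and the groups overlap. The ratio is a sum of 20 genes over a sum of 16, so the more abundant genes weigh more.

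**Figure D1:**
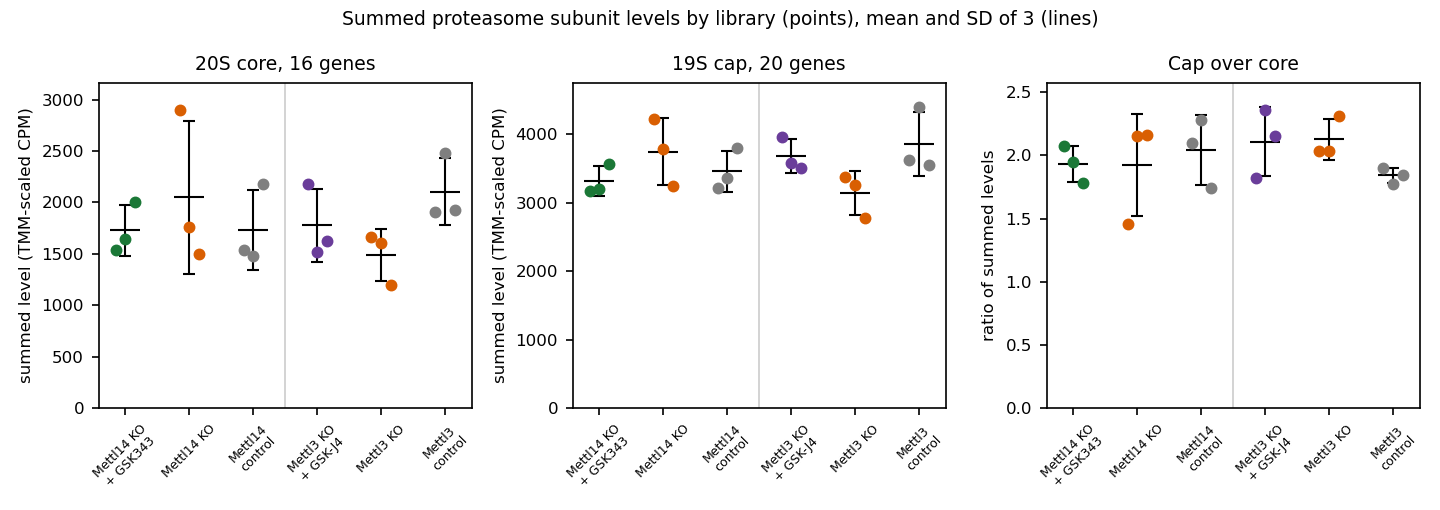
Summed level of the 16 core genes, summed level of the 20 cap genes (both in TMM-scaled CPM) and the ratio of cap to core, for 6 groups. Points are libraries, and bars mark the mean and the SD of 3 libraries. The core sum averaged 1488 ± 251 CPM in Mettl3 KO and 2103 ± 325 CPM in its control, and in Mettl14 KO the highest library, at 2897 CPM, stands apart from the other libraries of its group.

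**Figure D2:**
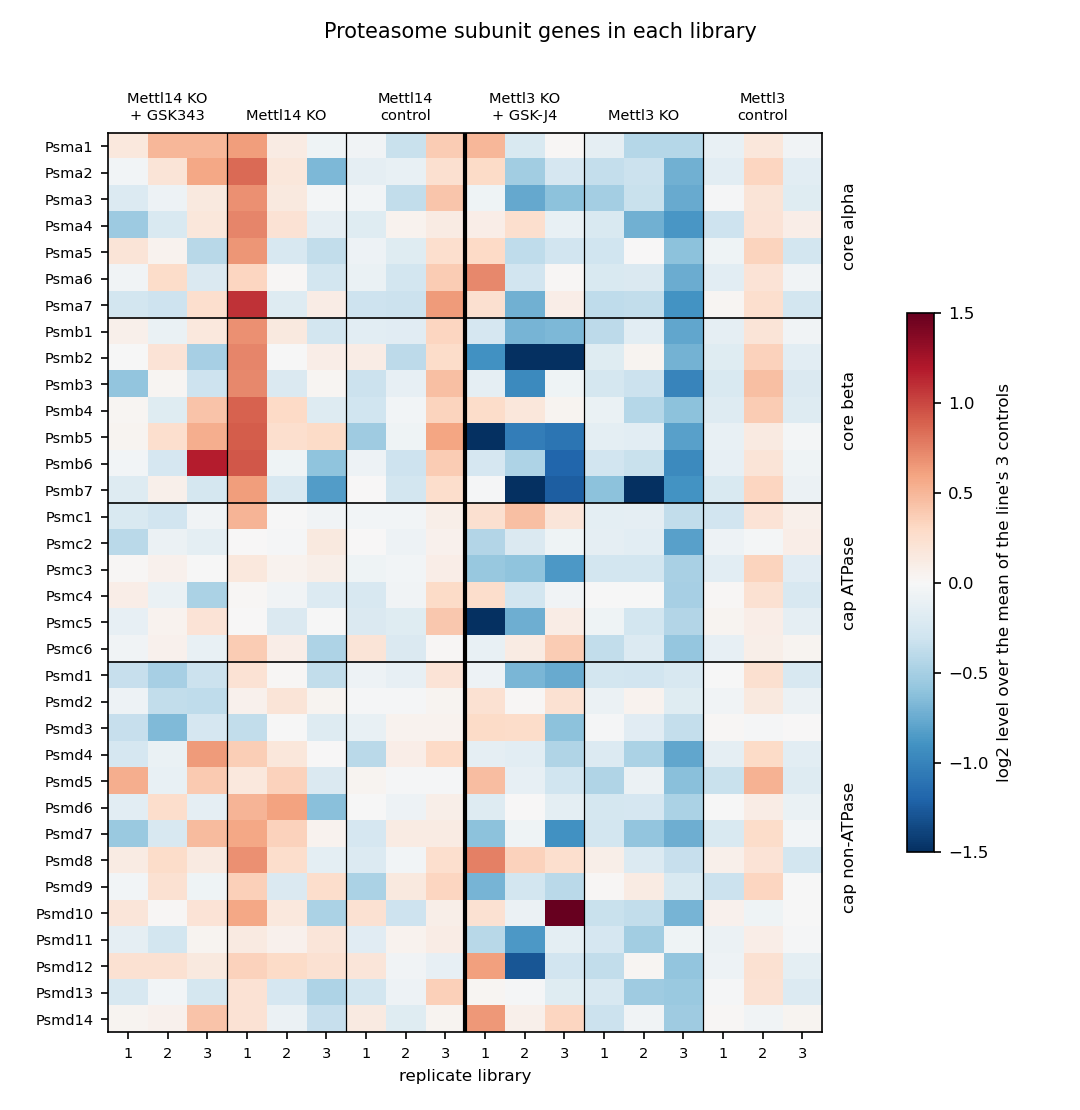
Level of the 34 members with reads in all 18 libraries, as the log2 ratio to the mean of the 3 control libraries of the same line, with genes in rows by subcomplex and libraries in columns. The colour scale ends at 1.5 in both directions. The first Mettl14 KO library is higher than the control mean in 33 of 34 members, and the third Mettl3 KO library is lower in 34 of 34.

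The Mettl14 KO group showed no difference from its control in the members' levels that passed the test. Of 34 members tested, none was called at an adjusted p under 0.05 (0.0% of 13882 genes were), and none had an unadjusted p under 0.05 either, against 208 genes (1.5%). DESeq2 also called no member. The log2 fold change of Mettl14 KO over control was above 0 in 28 of 34 members, against 51.7% of genes, with a median of 0.19, against 0.01 for all genes. The median was 0.27 in the core, where all 14 tested genes were above 0, and 0.13 in the cap. The 2 shallowest libraries of the line were a KO and a GSK343 library of 1303697 and 721853 counts. Without them the median was 0.29 and 6 of 35 members had an unadjusted p under 0.05, with none called. The share of all genes at that p in this fit was not determined, so the count is not read as an excess.

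These values rest on 1 library. Relative to the control mean, the median log2 level of the members was 0.51 in KO replicate 1, 0.06 in replicate 2 and -0.14 in replicate 3. Without replicate 1 the median log2 fold change was -0.02, with 16 of 35 members above 0, and 7 genes were called, no member among them. The same library had 60058 CPM in 76 ribosomal protein genes, a list chosen after the data were seen, against 29534 and 22604 CPM in the other KO libraries and 23872, 24186 and 35977 CPM in the controls. The part of that difference in the members' values was not tested.

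Among the 5 members with the smallest p, Psmb4, a non-catalytic beta subunit, had 161, 107 and 75.7 CPM in Mettl14 KO, against 70.3, 84.6 and 109.7 CPM in the control (log2 fold change 0.42 ± 0.28, adjusted p = 1.00, edgeR's quasi-likelihood test with Benjamini-Hochberg adjustment). The groups overlap and replicate 1 of the KO is highest. Psmb5 had 58.4, 37.1 and 37.8 CPM, against 21.5, 29.6 and 46.9 CPM in the control (0.48 ± 0.33), with overlap. Psmd12, a structural subunit of the cap lid, had 127, 122 and 117 CPM, against 113, 96.1 and 91.3 CPM in the control (0.31 ± 0.22), and is the only member that was higher in every KO library, as were 2.89% of genes. On plain CPM no member was. Psmd7 had 428, 366 and 298 CPM, against 241, 313 and 313 CPM in the control (0.36 ± 0.26). Psmd8, another lid subunit, had 482, 358 and 270.1 CPM, against 259, 290.0 and 354 CPM in the control (0.33 ± 0.24). In both, replicate 1 was the highest of the 6 libraries and another KO library lay within the control range. Of the other catalytic genes, Psmb6 had 223, 112 and 77.4 CPM in Mettl14 KO, against 111, 94.8 and 153 CPM in the control (0.25 ± 0.37), and Psmb7 had 138, 75.6 and 50.2 CPM, against 90.1, 74.2 and 107 CPM (0.01 ± 0.30), with overlap in both. The adjusted p by edgeR was 1.00 for each of these members.

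**Figure D3:**
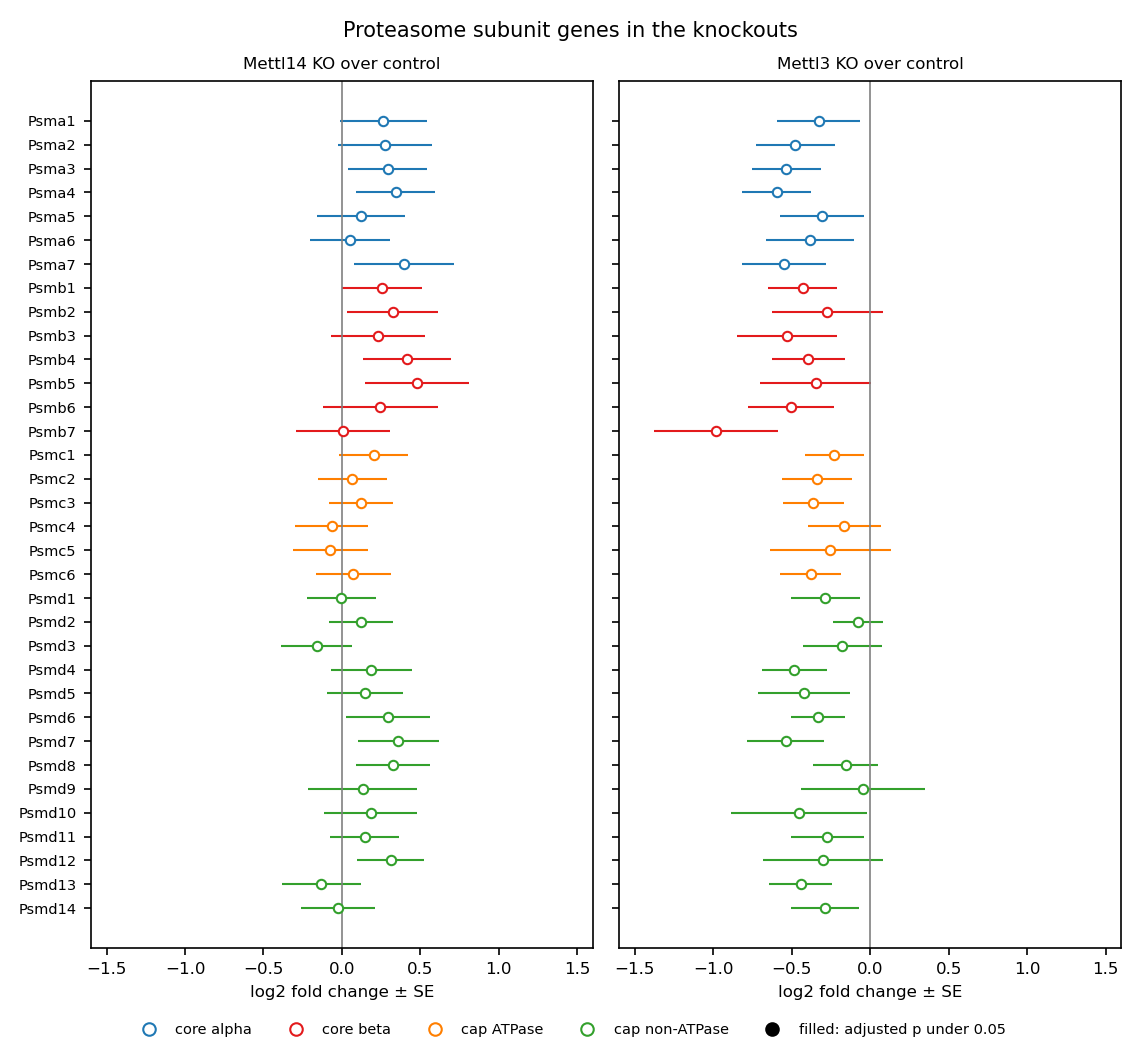
Log2 fold change with its SE (edgeR) of each of the 34 members with reads in all libraries, for Mettl14 KO over its control and Mettl3 KO over its control, by subcomplex. No member passed an adjusted p of 0.05 in either comparison. The Mettl3 values all lie below 0, and the Mettl14 values lie on both sides of 0.

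The Mettl3 KO group had lower values than its control throughout the set, though none passed the test. All 35 members tested had a log2 fold change below 0 in Mettl3 KO over control, against 50.9% of 16782 genes, with a median of -0.36, against -0.01 for all genes. The median was -0.51 in the alpha genes, -0.43 in the beta genes, -0.30 in the ATPases and -0.29 in the non-ATPases. None was called (0.0% of genes were by edgeR, and DESeq2 called 5 genes, no member among them). An unadjusted p under 0.05 was reached by 6 members, all lower, or 6 of 35 against 1.05% of genes that were lower at that p. In 20 of 35 members every KO library was below every control library, as in 6.59% of genes. These 20 were Psma1, Psma2, Psma3, Psma6 and Psma7, Psmb1, Psmb3, Psmb5, Psmb6 and Psmb7, Psmc2, Psmc3 and Psmc6, and Psmd1, Psmd3, Psmd4, Psmd6, Psmd7, Psmd10 and Psmd13. On plain CPM there were 18. The members moved together within libraries, with 30 of 34 above the control mean in control replicate 2 and 34 of 34 below it in KO replicate 3. Their signs are therefore not separate observations.

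Psma4 had 258, 183 and 166 CPM in Mettl3 KO, against 244, 349.5 and 324 CPM in the control, a log2 fold change of -0.60 ± 0.22 (edgeR, unadjusted p = 0.0203, adjusted p = 1.00). KO replicate 1 was above the lowest control, and the other KO libraries were below all controls. Psmb7 had 67.99, 36.6 and 55.9 CPM in Mettl3 KO, against 88.7, 131 and 97.9 CPM in the control (-0.98 ± 0.39). Psma3, another alpha-ring subunit, had 229, 258 and 193 CPM, against 324, 373 and 288 CPM in the control (-0.54 ± 0.22). These 2 genes did not overlap between the groups. Psmd4, a ubiquitin receptor of the cap, had 325, 268 and 217 CPM, against 341, 456 and 334 CPM in the control (-0.48 ± 0.21). Psmd7 had 286, 230.4 and 208 CPM, against 295, 420.0 and 336 CPM in the control (-0.54 ± 0.24). Psmd13, a lid subunit and the last of the 6 members below an unadjusted 0.05, had 109, 88.9 and 87.5 CPM, against 127, 149 and 112 CPM in the control (-0.44 ± 0.20). In all 3 cap genes every KO library was below every control library.

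The other catalytic genes had smaller differences relative to their error. Psmb5 had 35.7, 35.7 and 22.6 CPM in Mettl3 KO, against 36.8, 43.7 and 38.97 CPM in the control (-0.35 ± 0.35), and Psmb6 had 125, 121 and 78.3 CPM, against 139.9, 174 and 145 CPM (-0.51 ± 0.28). Neither overlapped between groups, and the adjusted p by edgeR was 1.00 for both. Nearer to 0 lay Psmd2, the scaffold of the cap base, which had 385, 427 and 360.2 CPM, against 396, 452 and 385 CPM in the control (-0.08 ± 0.16), which overlap.

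Single libraries moved the size of the median and not its sign. The median over the members ran from -0.45 to -0.27 when each library in turn was left out, with at most 2 members above 0. It was -0.27 without control replicate 2, the highest control, and no member then had an unadjusted p under 0.05. It was -0.29 without KO replicate 3, whose members' median was -0.62 relative to the control mean, against -0.26 and -0.27 in the other KO libraries, and again no member then had an unadjusted p under 0.05. The 76 ribosomal protein genes were lower in some of the same libraries, at 33119, 27447 and 21233 CPM in Mettl3 KO, against 32129 to 42221 CPM in the control. The 5 mesenchyme markers, all with reads, summed to 29967 to 33347 CPM in Mettl3 KO, against 18871 to 26991 CPM in the control. The 5 pluripotent markers, also all with reads in Mettl3 KO, summed to 4.12 to 32.1 CPM, against 0.276 to 2.19 CPM in the control, where Zfp42 was at 0. The part of these lists in the members' differences was not tested.

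The genes around the proteasome in this comparison included 36 tested of 39 listed, none called (0.0% of genes) and 22 below 0, with a median log2 fold change of -0.23 for Mettl3 KO over control. All 5 tested assembly chaperones were below 0, with a median of -0.48. Pomp, the chaperone that matures the core, had 92.6, 100.3 and 69.9 CPM in Mettl3 KO, against 109.7, 139.9 and 117 CPM in the control (-0.48 ± 0.25, edgeR, unadjusted p = 0.0753). Adrm1, a ubiquitin receptor of the cap whose symbol falls outside the rule, had 153, 142 and 113 CPM, against 177, 223 and 163 CPM (-0.47 ± 0.23). Nfe2l1 had 465, 510.2 and 484 CPM, against 497, 443 and 485 CPM in the control (0.03 ± 0.23). The groups of Pomp do not overlap, while those of Nfe2l1 do.

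In the Mettl14 line the same 39 genes gave 36 tested, none called (0.0% of genes) and 15 above 0 for Mettl14 KO over control, with a median of -0.04. Pomp had 191, 91.02 and 90.6 CPM in Mettl14 KO, against 75.95, 86.5 and 130.5 CPM in the control (0.38 ± 0.30), with replicate 1 highest. Nfe2l1 had 470.0, 619 and 705 CPM, against 579.5, 681 and 648 CPM (-0.07 ± 0.22), with the same library lowest.

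The knockout effects of the lines were set against each other in a fit of all 18 libraries. The difference, Mettl14 effect minus Mettl3 effect, was above 0 in 34 of 35 members, against 48.0% of 16326 genes, with a median of 0.56 on the log2 scale, against -0.03 for all genes. No member was called (0.0% of genes were by edgeR, with 366 genes at an unadjusted p under 0.05, and DESeq2 called 18 genes and no member). The largest in relation to its error was Psma4 at 0.91 ± 0.35 (edgeR, unadjusted p = 0.0159, adjusted p = 1.00), followed by Psmd7 at 0.87 ± 0.37, Psma3 at 0.80 ± 0.35, Psmb4 at 0.78 ± 0.39 and Psma7 at 0.92 ± 0.46. Psmb5, Psmb6 and Psmb7 had differences of 0.80 ± 0.49, 0.72 ± 0.53 and 0.96 ± 0.52. Without Mettl14 KO replicate 1 the median difference was 0.32. The controls of both lines enter this difference.

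No member passed the test between the controls of the lines. Mettl14 control over Mettl3 control was below 0 in 29 of 35 members, against 50.7% of genes, with a median log2 fold change of -0.25, against -0.01 for all genes. By edgeR 0.913% of genes were called and no member. The 5 smallest p belonged to Psmd6 at -0.45 ± 0.24, Psmb4 at -0.47 ± 0.27, Psmd8 at -0.37 ± 0.22, Psmd5 at -0.44 ± 0.27 and Psmc3 at -0.29 ± 0.18. Psmd6, a lid subunit, had 136, 129.9 and 146 CPM in the Mettl14 control, against 187, 202 and 175 CPM in the Mettl3 control, without overlap. Psmd5, a chaperone of the ATPase ring, had 87.6, 83.8 and 84.1 CPM in the Mettl14 control, against 88.9, 160.3 and 97.7 CPM in the Mettl3 control, without overlap. The catalytic genes were at -0.29 ± 0.34 for Psmb5, -0.35 ± 0.37 for Psmb6 and -0.22 ± 0.37 for Psmb7. In all, 2 members were higher without overlap (9.6% of genes) and 4 lower (8.48% of genes).

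GSK343, added to Mettl14 KO cells, left the members without a called difference from Mettl14 KO or from the control. Over Mettl14 KO, 29 of 34 members were below 0, against 53.2% of genes, with a median log2 fold change of -0.13, against -0.03 for all genes. No member was called (0.0288% of genes were by edgeR), none had an unadjusted p under 0.05, and DESeq2 called none. This comparison shares the KO libraries with that of KO over control: without KO replicate 1 the median was 0.01 and 19 members were above 0. Without the 2 shallowest libraries it was -0.31, 8 of 35 members had an unadjusted p under 0.05, and none was called. Here too the share of all genes at that p was not determined, so the count is not read as an excess.

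Psma4 had 164, 205 and 268 CPM in Mettl14 KO+GSK343, against 398, 278 and 218 CPM in Mettl14 KO (-0.51 ± 0.26, edgeR, adjusted p = 0.887). Psmd2 had 439, 359 and 357 CPM, against 483, 530.3 and 475 CPM in Mettl14 KO (-0.37 ± 0.20). The groups overlap for Psma4 and not for Psmd2. Psma7, an alpha-ring subunit, had 179, 174 and 259 CPM, against 460.0, 189.9 and 234 CPM (-0.55 ± 0.32). Psmb3, a non-catalytic beta subunit, had 46.7, 71.98 and 56.8 CPM, against 117, 60.6 and 72.2 CPM (-0.52 ± 0.31). Psmc1 had 186, 179 and 209.7 CPM, against 309.9, 217 and 209 CPM (-0.37 ± 0.22). In these 3 genes the first KO library is the highest and the groups overlap. The catalytic genes had log2 fold changes of -0.28 ± 0.34 for Psmb5, 0.14 ± 0.37 for Psmb6 and -0.11 ± 0.30 for Psmb7. Psmb5 had 31.9, 36.96 and 45.1 CPM in Mettl14 KO+GSK343, Psmb6 had 114, 98.1 and 265 CPM with replicate 3 the highest of the 9 libraries of the line, and Psmb7 had 78.1, 94.7 and 74.3 CPM. The members without overlap were 4, all lower (Psmc2, Psmd2, Psmd11 and Psmd12, against 5.29% of genes), and 0 on plain CPM.

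Against the Mettl14 control, the members of the GSK343 group split evenly, with 17 of 34 above 0, against 48.5% of genes, and a median log2 fold change of 0.01, against -0.01 for all genes. None was called (0.166% of genes were by edgeR, and DESeq2 called no member). This split moved with single libraries, with 12 of 35 above 0 without control replicate 1, 14 of 35 and a median of -0.07 without control replicate 2, and 26 of 35 and a median of 0.16 without control replicate 3. The 5 smallest p belonged to Psmd3 at -0.40 ± 0.23, Psmd1 at -0.37 ± 0.22, Psma1 at 0.38 ± 0.28, Psmd5 at 0.32 ± 0.25 and Psmd2 at -0.24 ± 0.20. Psmd3, a lid subunit, had 95.2, 76.8 and 102 CPM in Mettl14 KO+GSK343, against 112, 126 and 125 CPM in the control. Psmd1, a scaffold of the cap base, had 208, 186 and 211 CPM, against 249, 242 and 302 CPM in the control. Psmd2 had 456, 458 and 476 CPM in the control, all above the GSK343 values given before. These 3 cap genes were lower without overlap, as were Psmc1 and Psmc2, and 7.17% of genes. On plain CPM 3 were. Psma1 had 58.5, 74.2 and 74.3 CPM in Mettl14 KO+GSK343, against 50.7, 41.8 and 68.1 CPM in the control, and Psmd5 had 124, 78.8 and 112 CPM, against 87.6, 83.8 and 84.1 CPM. Both overlap. The catalytic genes were at 0.20 ± 0.34 for Psmb5, 0.39 ± 0.37 for Psmb6 and -0.11 ± 0.30 for Psmb7.

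GSK-J4, added to Mettl3 KO cells, gave 1 called member, Psmb2, over Mettl3 KO and over the control. Psmb2, a non-catalytic beta subunit (gene at chr4:126677630-126709714 on the plus strand, GENCODE on GRCm38), fell to 36.6, 16.8 and 20.7 CPM in Mettl3 KO+GSK-J4, against 60.8, 70.98 and 42.1 CPM in Mettl3 KO and 60.8, 87.4 and 61.6 CPM in the control. All 3 GSK-J4 libraries were below all 6 others. The log2 fold change was -1.21 ± 0.36 over Mettl3 KO (edgeR, adjusted p = 0.0486) and -1.48 ± 0.36 over the control (edgeR, adjusted p = 0.0231). Of all genes 13.0% were called over Mettl3 KO (9.07% lower and 3.96% higher), and 11.4% over the control (8.25% lower and 3.16% higher). For the 35 members this was 1 of 35 in either comparison, a smaller share than that of all genes. By DESeq2 the shares were alike over Mettl3 KO, with 8 of 35 members and 3717 of 16782 genes. The 2 comparisons share the GSK-J4 libraries. The 5 mesenchyme markers, all with reads, summed to 9130 to 16612 CPM in these libraries, against 29967 to 33347 CPM in Mettl3 KO and 18871 to 26991 CPM in the control, and mitochondrial messenger RNA was low in them as given above. Other marker sums moved too. Endothelial markers summed to 27.0 to 32.3 CPM with GSK-J4, against 11.4 to 17.97 CPM in Mettl3 KO and 10.03 to 18.4 CPM in the control. Cardiac markers, with Nppa at 0 in GSK-J4, summed to 9.76 to 46.8 CPM, against 1.67 to 4.96 CPM in Mettl3 KO and 3.13 to 11.96 CPM in the control. Neural markers, all with reads, summed to 3.42 to 8.56 CPM, against 17.6 to 50.3 CPM in Mettl3 KO and 25.3 to 29.3 CPM in the control. Endoderm markers, with Ttr at 0, summed to 6.34 to 12.8 CPM, against at most 0.953 CPM in Mettl3 KO and 2.48 CPM in the control. Trophectoderm markers, with Cdx2 at 0, ran from 0 to 65.9 CPM, with a median of 17.4 CPM. They reached 1.39 CPM in Mettl3 KO and 2.69 CPM in the control, so the groups overlap. The 2 tested trophectoderm genes went opposite ways over Mettl3 KO (log2 fold changes of -0.53 and 7.45). Of the other lists, 1 of 3 cardiac, 1 of 4 endoderm, 2 of 3 endothelial and 2 of 3 neural genes were tested over Mettl3 KO. By edgeR the cardiac gene was called higher and 1 neural gene lower, and no endothelial or endoderm gene was called. Of the 5 mesenchyme genes, 4 were called lower in either comparison, and 1 lay above 0 over the control (0.02). The part of any of these in the members' values was not tested.

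The call of Psmb2 depended on the fit. Over Mettl3 KO its adjusted p was 0.144, 0.135 and 0.0655 without KO replicate 1, 2 or 3 and 0.0817 without GSK-J4 replicate 2, 0.0625 with RLE size factors, 0.193 with voom and 0.119 when only the groups compared were fitted, with log2 fold changes between -1.73 and -1.004 when libraries were left out. Over the control it was 0.111 and 0.0607 without control replicate 2 or 3, 0.112 with voom and 0.0620 with only the groups compared.

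Over Mettl3 KO, the other members lay mostly above 0, and which of them passed the test depended on the tool and the scaling. By edgeR with TMM factors none was called higher and Psmb2 was called lower. DESeq2 called 7 members higher (Psma4, Psmb4, Psmc1, Psmc6, Psmd8, Psmd10 and Psmd14) and 1 lower, Psmb2, among 3717 of 16782 genes. With RLE size factors edgeR called 3 higher (Psma4, Psmd8 and Psmd14) and 0 lower, among 2218 genes. The log2 fold change was above 0 in 25 of 35 members, against 48.2% of genes, with a median of 0.22, against -0.06 for all genes. The medians were 0.42 in the alpha genes, -0.05 in the beta genes, 0.15 in the ATPases and 0.26 in the non-ATPases. An unadjusted p under 0.05 was reached by 11 of 35 members (8 higher, 3 lower), against 28.5% of genes. Without overlap, 9 members were higher (10.4% of genes), namely Psma4, Psmb4, Psmc1, Psmc6, Psmd6, Psmd8, Psmd10, Psmd13 and Psmd14, and 4 were lower (22.8% of genes), namely Psmb2, Psmb5, Psmc3 and Psmd9. On plain CPM 15 were higher and 1 lower. Without GSK-J4 replicate 1 the median was -0.02.

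Psma4 had 325, 361 and 279.8 CPM in Mettl3 KO+GSK-J4, against 258, 183 and 166 CPM in Mettl3 KO (0.70 ± 0.22, edgeR, adjusted p = 0.0608). Psmd14, the deubiquitinase of the cap, had 173, 117 and 138 CPM, against 88.4, 107 and 76.4 CPM (0.68 ± 0.22, edgeR, adjusted p = 0.0612). Psmd8 had 648, 488 and 459 CPM, against 410.1, 333 and 303 CPM (0.64 ± 0.21, edgeR, adjusted p = 0.0662). In these 3 genes all GSK-J4 libraries were above all KO libraries, and the adjusted p by edgeR with TMM factors missed the threshold, while DESeq2 and edgeR with RLE factors called all 3. Psmd10, an assembly chaperone of the cap also known as gankyrin, had 35.9, 28.9 and 93.8 CPM, against 24.5, 23.9 and 18.9 CPM (1.26 ± 0.44, edgeR, adjusted p = 0.0834). Its groups do not overlap, and GSK-J4 replicate 3 stood far above the other 8 libraries of the line. Without GSK-J4 replicate 2, Psmd10 and Psmd14 were called higher.

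None of the 3 catalytic subunits was called over Mettl3 KO, and only Psmb5 kept its sign when single libraries were left out. The log2 fold changes then ran from -1.01 to -0.72 for Psmb5, -0.38 to 0.05 for Psmb6 and -0.51 to 0.47 for Psmb7. Psmb5 had 14.2, 19.3 and 18.7 CPM in Mettl3 KO+GSK-J4, against 35.7, 35.7 and 22.6 CPM in Mettl3 KO, below it without overlap (-0.82 ± 0.36, edgeR, adjusted p = 0.16). Its pseudogene Psmb5-ps, counted separately, had 0, 0 and 127 reads in the GSK-J4 libraries, beside 58, 189 and 109 reads of Psmb5. In any other library it had at most 3. Whether the 127 reads came from Psmb5 transcripts could not be told, so the separation of GSK-J4 replicate 3 is not established. Psmb6 had 128, 110.2 and 66.6 CPM, against 125, 121 and 78.3 CPM (-0.05 ± 0.28, edgeR, adjusted p = 0.923), and Psmb7 had 103, 36.5 and 44.2 CPM, against 67.99, 36.6 and 55.9 CPM (0.22 ± 0.39, edgeR, adjusted p = 0.757). Both overlap, and for Psmb7 GSK-J4 replicate 1 was the highest of these 6 libraries and GSK-J4 replicate 2 the lowest.

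Over the Mettl3 control, the beta genes lay lowest. Their median log2 fold change was -0.56, with 1 of 7 above 0, against -0.08 in the alpha genes, -0.10 in the ATPases, -0.06 in the non-ATPases and -0.08 for all genes. Over all 35 members 13 were above 0, against 47.4% of genes, with a median of -0.11. RLE scaling raised the median of all genes by 0.10 and gave 18 members above 0, with a median of 0.00. Psmc3, an ATPase, had 213, 209 and 174 CPM in Mettl3 KO+GSK-J4, against 282, 398 and 281 CPM in the control (-0.66 ± 0.20, edgeR, adjusted p = 0.0506). Psmb5, with 36.8, 43.7 and 38.97 CPM in the control, had -1.17 ± 0.36 (edgeR, adjusted p = 0.0608). Both were lower in all GSK-J4 libraries, for Psmb5 with the Psmb5-ps reads left uncounted, and neither passed. Psmd8, with 405, 443 and 317 CPM in the control, had 0.48 ± 0.21, Psmb6 had -0.56 ± 0.28 and Psmb7 had -0.77 ± 0.39. Without overlap, 2 members were higher (Psmd8 and Psmd14, 9.93% of genes) and 7 lower (Psma8, Psmb1, Psmb2, Psmb5, Psmb6, Psmc3 and Psmd11, 23.7% of genes), which on plain CPM became 6 and 4. Psma8 is counted as lower with 0 reads in the GSK-J4 libraries. There 3 counts are worth 0.517 CPM on average, above its lowest control library at 0.207 CPM, so its separation could not be established. The 1 called member became 2 of 35 without control replicate 1 (among 1076 genes called) and 0 without control replicate 2 or 3 (980 and 888 genes). Without GSK-J4 replicate 1, 2 or 3 it became 6, 3 and 4 members, all lower, among 2742, 2798 and 2700 genes called of 18894, 18976 and 19266. The median of the members was -0.38 without GSK-J4 replicate 1 and 0.01 without control replicate 2.

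**Figure D4:**
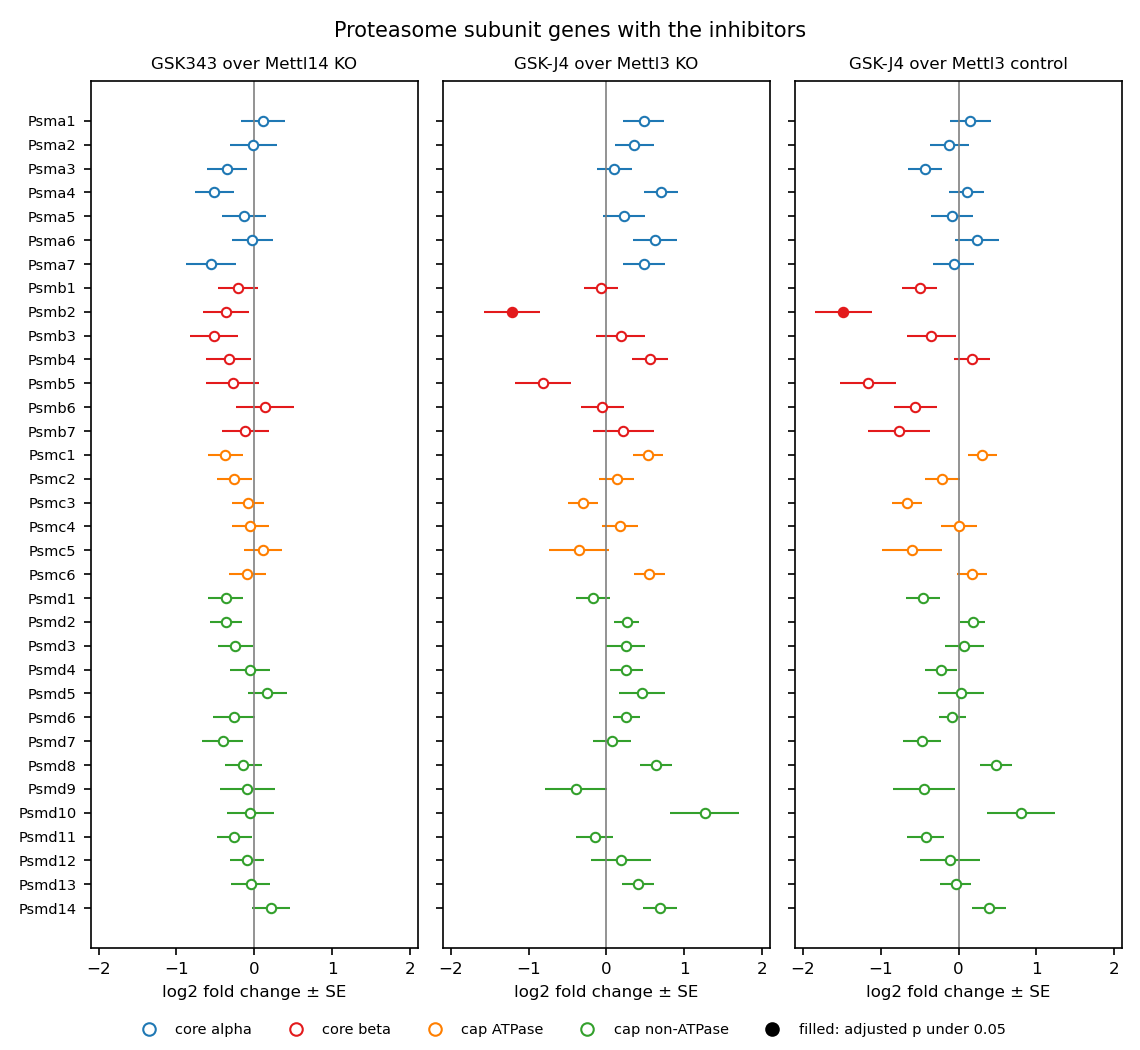
Log2 fold change with its SE (edgeR) of each of the 34 members with reads in all libraries, for Mettl14 KO+GSK343 over Mettl14 KO, Mettl3 KO+GSK-J4 over Mettl3 KO and Mettl3 KO+GSK-J4 over its control. Filled points have an adjusted p under 0.05. Psmb2 alone is filled, at -1.21 over Mettl3 KO and -1.48 over the control.

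The inhibitor effects were compared directly as GSK-J4 over Mettl3 KO minus GSK343 over Mettl14 KO. The difference passed the test in Psma4 (gene at chr9:54950790-54958030 on the plus strand), at 1.18 ± 0.35 on the log2 scale (edgeR, adjusted p = 0.0351), where 10.2% of genes were called and 1.92% with a higher value for GSK-J4. It combines a log2 fold change of 0.70 ± 0.22 with GSK-J4 and -0.51 ± 0.26 with GSK343, neither of which passed on its own. The call was lost without Mettl14 KO replicate 1 or 2 (adjusted p = 0.140 and 0.0586 by edgeR), GSK343 replicate 1 or 2 (0.114 and 0.0768), or Mettl3 KO replicate 2 or 3 (0.0922 and 0.104), and in the fit without a low-count filter (0.0560) and that of the 4 groups alone (0.0925). Over all members 28 of 35 were above 0, against 45.8% of genes, with a median of 0.33, against -0.13 for all genes. RLE scaling raised the median of all genes by 0.13. Psmc1, at 0.87 ± 0.28, had an adjusted p of 0.0545 by edgeR. Psmd2 at 0.60 ± 0.24, Psmd10 at 1.27 ± 0.54 and Psmd8 at 0.74 ± 0.32 followed, and none passed. Psmb5, Psmb6 and Psmb7 had -0.59 ± 0.50, -0.24 ± 0.53 and 0.29 ± 0.53. Psmb2 had -0.88 ± 0.47 (edgeR, adjusted p = 0.269), so its fall with GSK-J4 was not shown to differ from its change with GSK343, where it had 57.5, 66.6 and 40.8 CPM, against 96.01, 57.5 and 61.6 CPM in Mettl14 KO and 62.3, 43.8 and 69.9 CPM in the Mettl14 control. The agents, the lines and the depths differ together here and cannot be told apart.

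With GSK-J4, edgeR called 4 of 36 tested genes around the proteasome over Mettl3 KO, a share near the 13.0% of all genes. Of 39 related genes on lists of immunoproteasome, activator, chaperone, regulator, shuttle and ubiquitin genes, 36 were tested over Mettl3 KO, 2 rose and 2 fell, against 3.96% and 9.07% of genes. Ubb, a polyubiquitin gene, rose to 1689.5, 1240.4 and 1640.0 CPM in Mettl3 KO+GSK-J4, against 916, 739 and 622 CPM in Mettl3 KO and 954, 1113 and 953 CPM in the control (1.03 ± 0.19 over Mettl3 KO, edgeR, adjusted p = 0.00519). Every GSK-J4 library was above all 6 others. Akirin2, which in human cells carries the proteasome into the nucleus, rose to 124, 93.7 and 129 CPM, against 57.9, 68.5 and 48.3 CPM in Mettl3 KO and 60.3, 80.4 and 61.98 CPM in the control (1.02 ± 0.24, edgeR, adjusted p = 0.0193). Nfe2l2, a transcription factor of the stress response that shares its motif with Nfe2l1, fell to 94.9, 70.99 and 72.2 CPM, against 148, 167 and 141 CPM in Mettl3 KO and 131, 122 and 152 CPM in the control (-0.91 ± 0.20, edgeR, adjusted p = 0.0144). For Akirin2 and Nfe2l2 too the GSK-J4 libraries did not overlap the 6 others.

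The immunoproteasome gene Psmb8, which replaces Psmb5 in the interferon-induced particle, had no read in the 3 GSK-J4 libraries, against 138, 86 and 82 reads in Mettl3 KO and 75, 74 and 86 in the control. Its mean was at least 7.70-fold lower than in Mettl3 KO (edgeR, adjusted p = 0.0211) and at least 5.83-fold lower than in the control (edgeR, adjusted p = 0.0265), with a floor of 3 counts per library. It was low in all groups, with 6.35, 0.919 and 0 CPM in Mettl14 KO+GSK343, 8.76, 3.997 and 10.6 CPM in Mettl14 KO and 3.25, 2.95 and 6.23 CPM in that control. Psmb9 had 0, 12 and 0 reads in Mettl3 KO+GSK-J4 and none in Mettl3 KO or its control. Psmb10 had 10.98, 5.52 and 0 CPM in Mettl3 KO+GSK-J4, 7.46, 9.93 and 9.22 CPM in Mettl3 KO and 13.1, 12 and 7.65 CPM in the control (-0.66 ± 1.15 over Mettl3 KO, edgeR, adjusted p = 0.746), and its groups overlap. The 5 immune cell markers, of which 4 had reads in Mettl3 KO+GSK-J4 and Aif1 was at 0 there, summed to 3.66 to 72.2 CPM in that group, 7.52 to 16.5 CPM in Mettl3 KO and 7.59 to 9.33 CPM in the control. The 11 interferon-induced genes listed, of which Ifit1 was at 0 with GSK-J4, summed to 488 to 621 CPM in that group, 663 to 823 CPM in Mettl3 KO and 774 to 851 CPM in the control. The part of both lists in these values was not tested.

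The call over Mettl3 KO was lost for Ubb (adjusted p = 0.0591) without KO replicate 2, for Nfe2l2 (0.0519) without KO replicate 1, for Psmb8 without any 1 of the KO libraries (0.0690 to 0.0914), and for Akirin2 without any 1 of the KO libraries or GSK-J4 replicate 1 or 3 (0.0556 to 0.104), all by edgeR. Over the control, Nfe2l2 fell (-0.74 ± 0.20, edgeR, adjusted p = 0.0384), and this call and that of Psmb8 were lost without any 1 of the control libraries (0.0600 to 0.170). That of Nfe2l2 was also lost without GSK-J4 replicate 2 (0.0599). Neither Ubb (adjusted p = 0.0572) nor Akirin2 (0.0557) was called over the control by edgeR. Other fits also lost calls. Over Mettl3 KO, Psmb8 was not called without a low-count filter (0.0565) or with only the groups compared (0.0603), Nfe2l2 with voom (0.0619) and Akirin2 with only the groups compared (0.0539). Over the control, Psmb8 was not called without a low-count filter (0.0731), with voom (0.0634) or with only the groups compared (0.0655). Nfe2l2 was not called over the control with RLE factors (0.0696), without a low-count filter (0.0507), with voom (0.0941), with only the groups compared (0.0754) or with all 18 libraries fitted (0.0628).

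Nfe2l1, which in mammals drives subunit transcription when proteasomes fail, had 348, 361 and 192 CPM in Mettl3 KO+GSK-J4, against 465, 510.2 and 484 CPM in Mettl3 KO (-0.67 ± 0.23, edgeR, adjusted p = 0.0781), lower without overlap. Pomp had 157, 106 and 185 CPM, against 92.6, 100.3 and 69.9 CPM (0.80 ± 0.25, edgeR, adjusted p = 0.0561), higher without overlap. Neither passed the test. In the Mettl14 line, no related gene was called in the GSK343 group over KO or over control. Nfe2l1 had 661, 568 and 757 CPM in Mettl14 KO+GSK343 (0.14 ± 0.22 over KO and 0.08 ± 0.22 over control) and Pomp had 85.9, 104 and 118 CPM (-0.31 ± 0.30 and 0.08 ± 0.30).

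**Figure D5:**
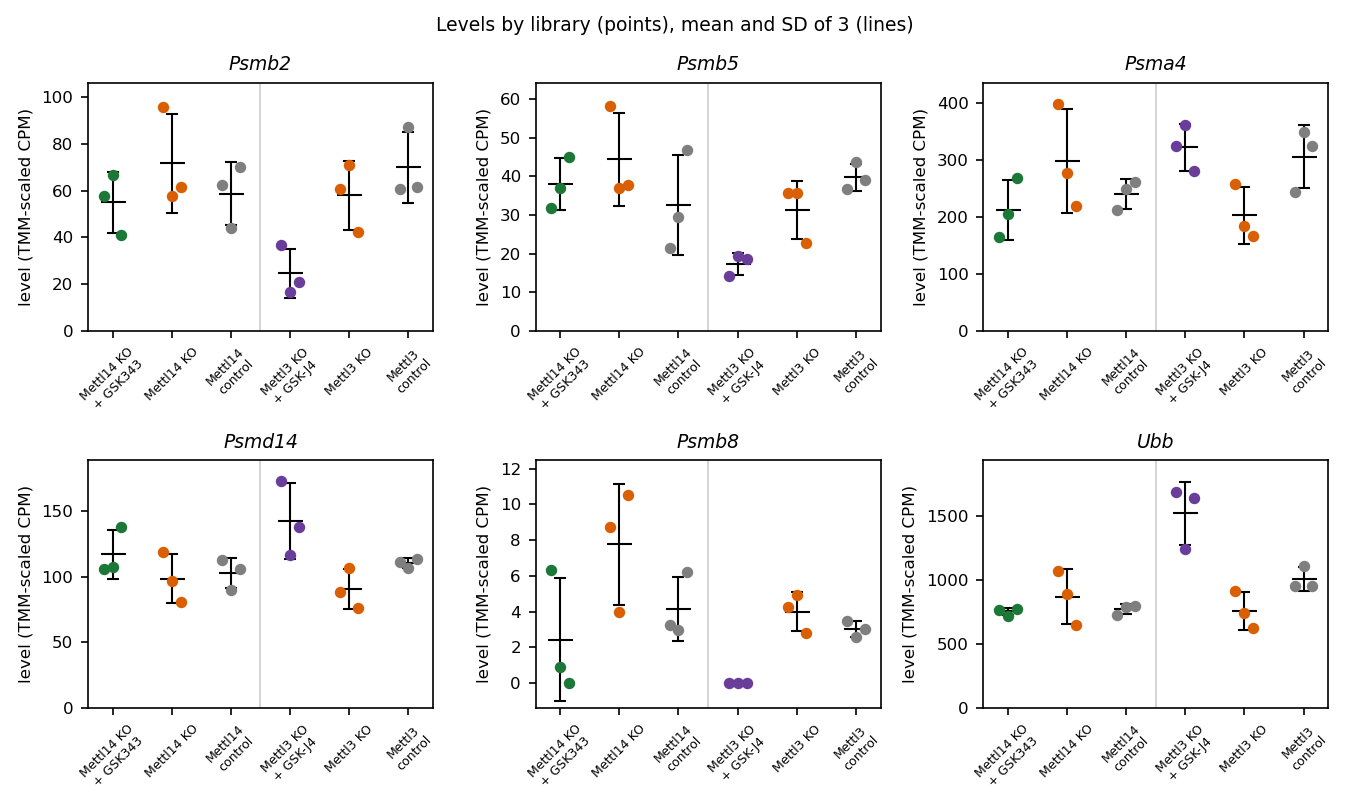
Level in TMM-scaled CPM of Psmb2, Psmb5, Psma4, Psmd14, Psmb8 and Ubb in each library of 6 groups, with the mean and SD of 3 libraries. In Mettl3 KO+GSK-J4 the Psmb2 libraries lie between 16.8 and 36.6 CPM, below all other libraries, the Ubb libraries lie above all others, and Psmb8 is at 0.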

How the data were processed

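The deposited files hold raw counts per gene, per the labels. Per the submitters' processing notes, the authors used CASAVA, Trimmomatic 0.38 for trimming, HISAT2 2.1.0 for alignment to mm10, and HTSeq for the counts. Poly(A) RNA was made into libraries with a stranded SMARTer kit, per the labels' protocols. Neither the annotation nor the strand option of HTSeq is given in the sources used here. Dropping versions, 54409 identifiers matched GENCODE M21 and 37 did not.

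All further steps were run here. The members and gene lists were chosen with earlier results of these data known. Groups came from the labels. The quasi-likelihood F test of edgeR 4.0.16 (R 4.3.3, TMM factors, genes kept by filterByExpr) was fitted to the 9 libraries of each line, and contrasts across lines on all 18. P-values were adjusted over all tested genes by Benjamini-Hochberg, and 0.05 was the threshold. Errors of log2 fold changes are SEs, and other errors are SDs of 3 libraries. Values named are those of the 5 members with the smallest p, every called member, the extremes of each subcomplex and the 3 catalytic genes, and for related genes up to 3 per list. Psmd13 in Mettl3 KO was named beyond these, and 2 related genes are not reported here. Reads from overlapping or pseudogene copies could not be told apart. Floors cover counting error only. Alternatives were DESeq2 1.42.0, RLE factors, all genes kept, a block for the replicate number, limma 3.58.1 voom with quality weights, other sample sets, plain CPM and leaving out each library. The test was tried on simulated data. The shallowest libraries were in the Mettl14 line. The common biological coefficient of variation over all genes by edgeR was 0.394 in the Mettl14 line and 0.843 in the Mettl3 line.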

Additional observations from a re-analysis of the deposited data

Results flagged for a closer look

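The inhibitor effects were compared in a direct test of the difference, GSK-J4 over Mettl3 KO minus GSK343 over Mettl14 KO. Agent and line differ together in it. By edgeR's quasi-likelihood test with Benjamini-Hochberg adjustment, 1 of 35 proteasome subunit genes and 2 related genes were called, against 10.2% of all genes. Psma4 had a difference of 1.18 on the log2 scale (adjusted p = 0.0351), and its call was lost in several other fits, as given above. Ubb had a difference of 1.21 (adjusted p = 0.00788), with 1689.5, 1240.4 and 1640.0 CPM in Mettl3 KO+GSK-J4, against 916, 739 and 622 CPM in Mettl3 KO, and 768, 723 and 773 CPM in Mettl14 KO+GSK343, against 1075, 889 and 647 CPM in Mettl14 KO. Psmb8 was also called lower (adjusted p = 0.0366), with no read in the GSK-J4 libraries. Psmb8 was not called without any 1 of the Mettl14 KO or Mettl3 KO libraries, GSK343 replicate 1 or GSK-J4 replicate 2 (adjusted p between 0.0566 and 0.165). It was also not called without a low-count filter (0.0973), with only the 4 groups fitted (0.124) or with voom (0.297).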

How the results depend on the processing

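No called value changed sign under any setting run. Members called in Mettl3 KO+GSK-J4 over Mettl3 KO were 1, and 8 with DESeq2, 3 with RLE factors, 3 with all 18 libraries fitted, and 0 with voom, with the replicate block or with only the groups compared. Over the Mettl3 control they were 1, and 5 with DESeq2, 2 without a low-count filter, 4 with all 18 libraries fitted, and 0 with voom or only the groups compared. For the difference of inhibitor effects they were 1, and 4 with DESeq2, 2 with RLE factors, 2 without the 2 shallowest libraries, and 0 without a low-count filter, with the replicate block or with only the 4 groups. Leaving out each library gave 0 to 2, 0 to 6 and 0 to 2 members. The replicate numbers did not pair the samples (correlations of -0.12 to 0.102 between same-numbered libraries), and the blocked fit called 0 members in the other comparisons and 1, Psmb2, over the Mettl3 control. With the block the adjusted p was 0.0814 for Psmb2 and 0.0753 for Psmb8 over Mettl3 KO, 0.0902 for Psmb8 and 0.0819 for Nfe2l2 over the control, and 0.0773 for Psma4 and 0.108 for Psmb8 in the difference of inhibitor effects. It could not be made between the controls. On plain CPM the sums of Mettl3 KO+GSK-J4 averaged 2128 ± 445 CPM in the core and 4410.4 ± 325 CPM in the cap. Those of the Mettl3 control averaged 2084 ± 306 and 3825 ± 441 CPM. With TMM factors the averages were 1775 ± 356 and 3682 ± 247 CPM with GSK-J4, against 2103 ± 325 and 3859 ± 470 CPM in the control. The direction over the control thus depended on the scaling. Apart from leaving out 1 library, genes called ranged from 977 (only the groups compared) to 3717 (DESeq2) around 2186 over Mettl3 KO, from 887 to 3520 around 1916 over the control, and from 856 to 2348 around 1668 for the inhibitor difference, which reached 2541 without GSK-J4 replicate 2. DESeq2 called 56 genes where edgeR called 4 with GSK343 over Mettl14 KO. For single genes, 1683 values of other settings kept direction and side of the threshold, 101 lost a call, 45 gained one and 67 uncalled ones changed sign. The causes were not tested. Low depth in 2 Mettl14-line libraries limits that line, and lower depth in the GSK-J4 libraries limits the Mettl3 line.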
